A study of Mus musculus with 12 samples.

Results

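The 48 genes described here code for the machinery that copies DNA and for the enzymes that supply its deoxynucleotides. They were taken from a list of gene symbols chosen with earlier results of these data known. They were found among 25917 genes to which the transcripts of the deposited tables could be matched. All 48 passed the filter on low values, as 48 of 13148 genes tested. They were read as 8 roles: 5 genes of origin licensing, the 6 MCM subunits, 8 genes of helicase activation, 8 of the polymerases and primase, 9 of the clamp, its loader, RPA and Okazaki fragment processing, 4 of nucleotide supply, 4 of chromatin copying and 4 G1/S regulators. The cells were C2C12, a mouse myoblast line that stops dividing and fuses into myotubes when serum is lowered. Poly(A) RNA was sequenced from 12 libraries in 4 groups of 3: D2 siKctd10, D2 siControl, D0 siKctd10 and D0 siControl. D2 cells had been moved to DMEM with 2% horse serum 24 h after the siRNA and were labelled differentiating myocytes, harvested after 48 h in that medium. D0 cells grew below confluence in DMEM with 10% FBS and were harvested 48 h after the siRNA. siKctd10 was 1 siRNA against Kctd10, which codes for an adaptor of a cullin ubiquitin ligase, and siControl was a non-targeting siRNA. Day, medium and time since the siRNA changed together. Age of the culture, serum and its kind, and time since the siRNA therefore cannot be told apart. Nothing in the labels says whether each replicate was its own culture. P-values therefore describe only the spread between these libraries, which may be technical.

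A cell licenses its replication origins in G1, when ORC, CDC6 and CDT1 load the ring-shaped MCM helicase onto DNA. At the start of S phase, kinases together with MCM10, CDC45 and the GINS complex turn the loaded ring into a moving helicase, and polymerases, the sliding clamp PCNA and its RFC loader follow it. Many of these genes are transcribed by E2F factors, which the retinoblastoma family holds in check in resting cells. Myoblasts leave the cell cycle before they fuse.

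The targeted gene was low in every siKctd10 library, which checks the labels. Kctd10 had 34.3, 26.8 and 35.1 TPM (a transcript's share of the library, scaled to 1000000) in D2 siKctd10 cells, against 285, 276 and 289 TPM in D2 siControl cells. At D0 it had 24.8, 24.5 and 20 TPM in siKctd10 cells, against 272, 258 and 269 TPM in siControl cells. By a two-sided exact permutation test p was 0.1 at D2 and at D0, the smallest value 3 against 3 libraries can give. In units of 1000000, the read pairs assigned to transcripts numbered 12.51 to 18.08 per library. Markers of muscle cells fitted the labelled line: the summed TPM of 12 myoblast and myocyte genes was 2937 to 3499 in D2 siKctd10, 4704 to 4940 in D2 siControl, 616 to 694 in D0 siKctd10 and 550 to 573 in D0 siControl libraries. The sums of leukocyte, endothelial and neural markers each stayed at 2.55 TPM or less in all 12 libraries. The adipocyte sum was 29.7 to 30.7 TPM in D2 siKctd10, 15.9 to 18.5 in D2 siControl, 31.9 to 34.2 in D0 siKctd10 and 28.3 to 35.6 in D0 siControl libraries, all of it from Pparg and Cebpa, with Adipoq, Plin1, Fabp4 and Lep at 0. The osteoblast sum was 42.9 to 48.9, 36.6 to 43.7, 51.0 to 61.4 and 23.1 to 53.5 TPM in the same order of groups, nearly all from Runx2, with Bglap and Ibsp at 0. On the second principal component, both siKctd10 #3 libraries stood apart, at -42.6 at D2 and -42.7 at D0, against -20.1 to -1.6 for the other siKctd10 libraries. D2 siKctd10 #3 was the lowest of the 6 D2 libraries for 19 of the 48 genes and the highest for 6. D0 siKctd10 #3 was the lowest of the 6 D0 libraries for 20 of them and the highest for 10.

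A property of the deposited estimates bears on every level below. In transcripts of at least 3 exons and at least 20 TPM, 62.2 to 66.9% of exons shorter than 200 bases were listed with a coverage of 0, against 3.89 to 4.60% of exons of at least 300 bases. A transcript's coverage equalled the length-weighted mean over its exons, these zeros included. Most short exons therefore add nothing to the level, and a short exon that is listed in some libraries and at 0 in others moves the total. The share of each gene's level that came from long exons was not computed. The counts of calls among the 48 genes were also computed from exons of at least 300 bases alone, an alternative chosen after seeing the data. It holds 42 of the 48 genes. Cdc45, Prim1, Pold2, Pole2, Rfc3 and Lig1 have no exon of that length in the transcripts used.

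RefSeq promoters (GRCm38.p6, 250 bases before to 50 after the start) were at hand for 39 of the 48 genes, as 49 windows. The E2F words searched on both strands were TTCCCGC, then TTCGCGC, then TTGGCGC and also the word TTGCCGC. At least 1 of them stood in 30 of the 49 windows (61.2%), against 5 of 26 windows of mitosis genes (19.2%) and 9.57% of 32851 windows of all genes. The CHR words TTTGAA and TTCGAA, known from genes of late cell cycle, stood in 12 of the 49 windows (24.5%), against 19 of 26 windows of mitosis genes (73.1%) and 19.2% of all. CCAAT stood in 27 of the 49 windows (55.1%), against 19 of 26 (73.1%) and 37.4%. Some E2F words overlap their own reverse complement, and one that ends in CCAA and is followed by T also holds CCAAT. These are matches of letters, and whether the base composition of these windows is richer in CG than that of other promoters was not compared.
The stretches below show the words in capitals, each within 28 bases read 5′ to 3′ on the gene's strand: 4 MCM genes whose words read on both strands, then 3 genes on which the siRNA comparisons turn.
Mcm3 (chr1:20820263-20820290, minus strand): ggaaaacttgggaagttTTGGCGCCAAg
Mcm5 (chr8:75109347-75109374, plus strand): gccaagaactTTCGCGCCAAaacgtcca
Mcm6 (chr1:128359734-128359761, minus strand): ttggacgggtTTGGCGCGAAgtagctca
Mcm7 (chr5:138171849-138171876, minus strand): gtgacgacgtTTCGCGCCAAtttcggtt
Rrm1 (chr7:102441618-102441645, plus strand): ggagaactcgTTCCCGCcaggtccgctt
Rpa2 (chr4:132768313-132768340, plus strand): ctgtcccttcGCGGGAAggagtttgtgg
E2f2 (chr4:136172296-136172323, plus strand): aatttggcggcatatagtTTGGCGCtaa
The 26 genes with an E2F word and the 13 without one had close median day changes. In siKctd10 cells their median log2 changes were -1.25 with a word and -1.26 without, and in siControl cells -1.38 with a word and -1.32 without. The changes ran from -1.89 to -0.08 with a word and from -2.82 to -0.53 without one in siKctd10 cells. In siControl cells they ran from -2.32 to 1.31 with a word and from -2.37 to -0.46 without one.

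The first comparison asked how the replication genes differed between differentiating and growing cells. They fell together. In siKctd10 cells 37 of the 48 genes were lower at D2 than at D0 and none was called higher, where 13.2% of all genes tested were called lower. In siControl cells the count was also 37 of 48 lower and none higher, where 14.0% of all genes were called lower (limma on log2(TPM + 1), Benjamini-Hochberg over all genes, adjusted p under 0.05). No gene of the 48 was higher at an unadjusted p under 0.05 in either arm, and limma-voom on estimated read pairs called 40 and 39 lower in the siKctd10 and siControl arms and 0 higher. The median log2 change was -1.27 in siKctd10 cells and -1.38 in siControl cells, against 0.12 and 0.09 for all genes tested. As a share of the D0 mean, the median gene kept 38.6% of its TPM in siKctd10 cells and 36.9% in siControl cells. In bulk RNA, fewer cycling cells and less RNA per cell cannot be told apart.

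**Figure D1:**
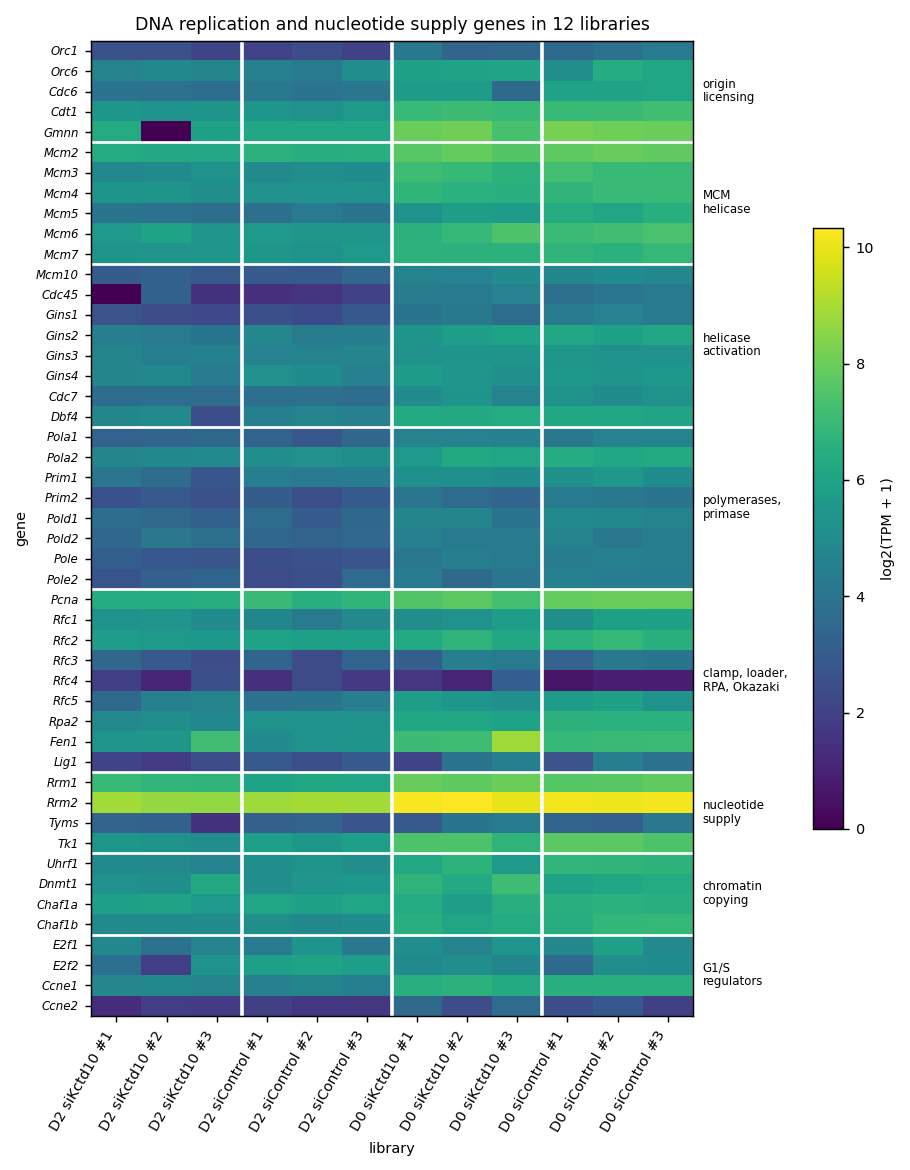
Level of each of the 48 genes, as log2(TPM + 1) by colour, in each of the 12 libraries, with genes in rows by role and libraries in columns by group. Most rows are darker (lower) in the 6 D2 libraries on the left than in the 6 D0 libraries on the right; single dark cells are Gmnn in D2 siKctd10 #2 and Cdc45 in D2 siKctd10 #1.

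Without any overlap between days, 38 of the 48 genes lay lower at D2 in siKctd10 cells, against 18.1% of all genes. In siControl cells 42 lay lower and 2, Rfc4 and E2f2, lay higher, against 21.6% and 30.6% of all genes (52.2% in either direction). The arms called mostly the same genes: 34 were lower in each. Cdc6, Pole2 and Rfc1 were called in siControl cells alone, and Gins4, Dnmt1 and Ccne2 in siKctd10 cells alone. The remaining 8, Gmnn, Rfc3, Rfc4, Lig1, Tyms, Chaf1a, E2f1 and E2f2, were called in neither. A call in 1 arm does not show that the arms differ, and the test of that difference, the interaction, called 0 of the 48 genes. The summed TPM of all 48 was 1617 to 1783 in D2 siKctd10 against 4374 to 4588 in D0 siKctd10 libraries, and 1795 to 1845 in D2 siControl against 4574 to 4753 in D0 siControl libraries. Without both siKctd10 #3 libraries, 37 of 48 genes were again called lower in siKctd10 cells. From exons of at least 300 bases, 29 of 42 genes were lower in siKctd10 cells, all of them among the 37, and 28 of 42 in siControl cells, of which 27 were among the 37. Among genes with such an exon, the calls of Orc6, Pola1, Pold1, Dnmt1 and Ccne2 ended in siKctd10 cells, those of Orc1, Orc6, Cdc6, Dbf4, Pold1 and Rfc1 ended in siControl cells, and Gins4 was gained in siControl cells. For limma-voom, for long exons and without both #3 libraries, the shares of all genes called between days are not given here. These counts show only whether calls of the 48 were kept. Of the 10 genes with a single transcript that shares no base with another, 10 were lower in siKctd10 cells and 9 in siControl cells. The share called lower among all genes of that kind was not computed.

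**Figure D2:**
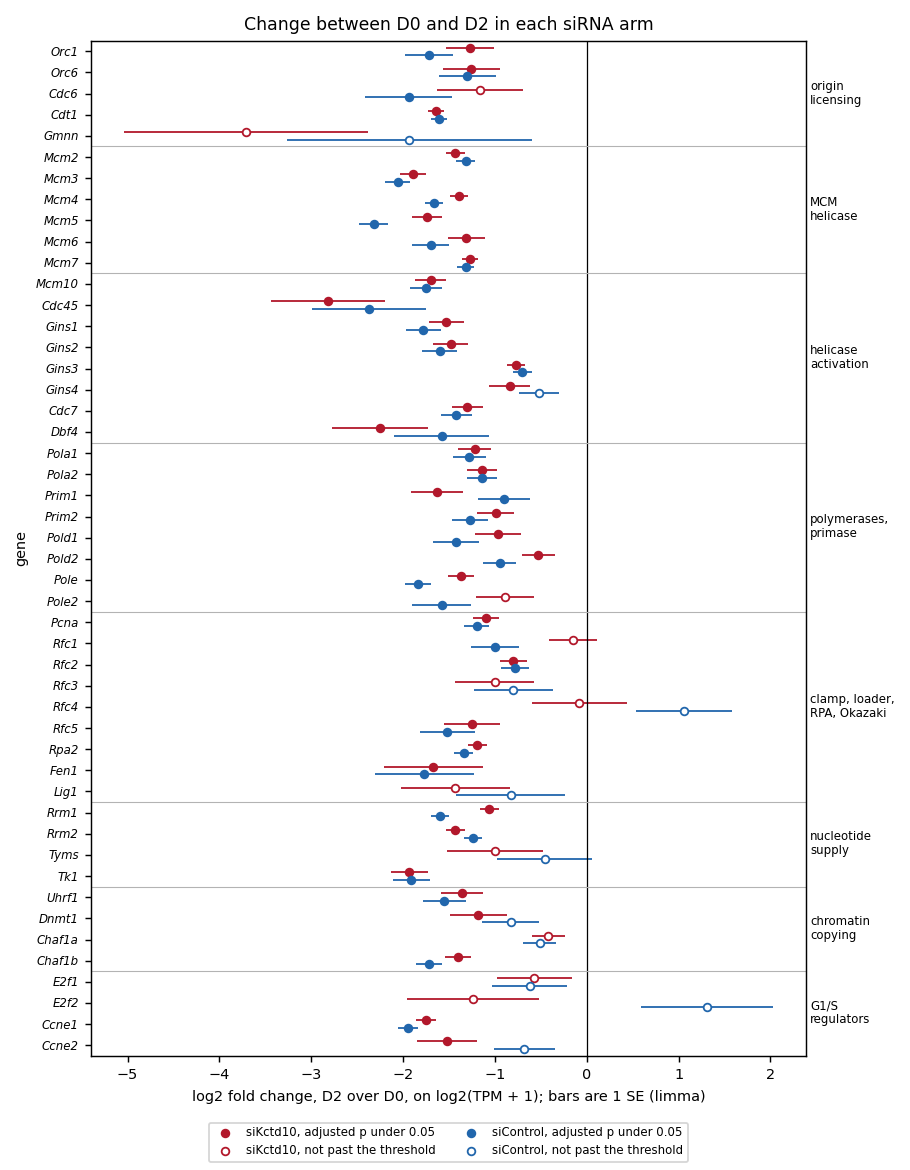
Log2 fold change of each of the 48 genes, D2 over D0, in siKctd10 cells (red) and siControl cells (blue), with 1 SE from limma; filled points passed the threshold. The points of most genes lie between -1 and -2 in both arms. The SE is shared by the 4 groups, so a wide bar shows that libraries varied in at least 1 group, not in each. For Gmnn the siControl libraries of each day were close together, and 1 D2 siKctd10 library stood apart.

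The 6 subunits of the MCM ring, the helicase that opens the double strand, were all lower in both arms, and in each of them all D2 libraries lay below all D0 libraries. Mcm5 had 14.7, 13.8 and 12 TPM at D2 against 38.9, 52.6 and 51.4 TPM at D0 in siKctd10 cells, and 12.9, 17.6 and 15.2 TPM at D2 against 83.5, 68.6 and 87.6 TPM at D0 in siControl cells. It fell by 1.74 (SE 0.16, adjusted p = 2.5e-05) in siKctd10 cells and by 2.32 (SE 0.16, adjusted p = 3.2e-06) in siControl cells on the log2 scale. Mcm3 had 27.6, 29.0 and 37.8 TPM at D2 against 138, 120 and 100 TPM at D0 in siKctd10 cells, and 29.2, 33.7 and 31.3 TPM against 146, 127 and 129 TPM in siControl cells. These values put Mcm3 at 26.3% and 23.4% of its D0 level in the siKctd10 and siControl arms, a log2 change of -1.89 (SE 0.14) and -2.06 (SE 0.14). The other 4 subunits kept 36.7 to 41.0% in siKctd10 cells and 30.2 to 39.9% in siControl cells. The ring is built from 1 copy of each subunit, while the TPM estimates, a measure per length, were unequal. In D0 siControl cells Mcm2 had 220 to 247 TPM and Mcm5 68.6 to 87.6 TPM. From exons of at least 300 bases the same libraries had 637 to 690 TPM for Mcm2 and 91.0 to 105 TPM for Mcm5. The size of this gap depends on the exons used, so these estimates do not settle how the subunits compare with each other.

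Of the origin licensing genes, 3 of 5 were lower in siKctd10 cells and 4 of 5 in siControl cells. Orc1, the largest ORC subunit, had 4.89, 4.85 and 3.39 TPM at D2 against 16.7, 9.46 and 10.4 TPM at D0 in siKctd10 cells, and 3.17, 4.49 and 3.07 TPM against 10.6, 13.6 and 18.8 TPM in siControl cells. It fell by 1.27 (SE 0.26, adjusted p = 0.0037) and by 1.72 (SE 0.26, adjusted p = 0.00056) on the log2 scale in the siKctd10 and siControl arms, with no overlap between days. Exons of at least 300 bases gave a siControl change of -1.10 (adjusted p = 0.06), which ends that call, with D2 #2 at 11.1 TPM above D0 #1 at 8.4 TPM. Cdt1, which brings the MCM ring to ORC, was among the steadiest of the 48: it kept 31.5% of its level in siKctd10 cells and 32.3% in siControl cells, and the SE of both log2 changes was 0.09. Cdc6, its partner in loading, had 14.4, 13.6 and 12.2 TPM at D2 against 51.9, 51.1 and 10.9 TPM at D0 in siKctd10 cells. In siControl cells it had 16.6, 14.5 and 15.8 TPM at D2 against 61.3, 61.0 and 66.0 TPM at D0, a fall by 1.94 (SE 0.47, adjusted p = 0.0094). The 1 low D0 library, siKctd10 #3, is where Cdc6 overlapped between days, and it was not called in that arm (-1.16, SE 0.47, adjusted p = 0.084). With exons of at least 300 bases alone, Cdc6 was called in neither arm, with changes of 0.26 in siKctd10 and -1.87 in siControl cells (SE 1.37 each, adjusted p = 0.91 and 0.34). D0 siKctd10 #3 then stood at 0.0135 TPM beside 77.2 and 73.8 TPM. Gmnn codes for geminin, the inhibitor of CDT1, and was not called in either arm. It had 80.4, 0.0261 and 59.9 TPM at D2 against 254, 275 and 159 TPM at D0 in siKctd10 cells, and 70.0, 70.8 and 69.8 TPM against 298, 264 and 251 TPM in siControl cells. Every D2 library lay below every D0 library, and the near-zero estimate of D2 siKctd10 #2 gave the fold change an SE of 1.33, with log2 changes of -3.71 (adjusted p = 0.053) and -1.93 (adjusted p = 0.3) in the siKctd10 and siControl arms.

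Among the genes that activate the helicase, 8 of 8 were lower in siKctd10 cells and 7 of 8 in siControl cells. Gins1, a GINS subunit, had 5.26, 4.41 and 3.89 TPM at D2 against 15.3, 17.3 and 12.4 TPM at D0 in siKctd10 cells, and 4.77, 3.96 and 6.20 TPM against 17.4, 22.8 and 18 TPM in siControl cells. It fell by 1.53 (SE 0.19, adjusted p = 0.00015) and by 1.78 (SE 0.19, adjusted p = 5e-05) in the siKctd10 and siControl arms. Cdc45, which joins GINS and MCM in the working helicase, was listed at 0, 8.30 and 1.84 TPM at D2 in siKctd10 cells, against 19.1, 18.3 and 22.7 TPM at D0. In siControl cells it had 1.64, 2.02 and 2.99 TPM at D2 against 13.0, 15.8 and 17.5 TPM at D0. All D2 libraries lay below all D0 libraries in both arms, with changes of -2.82 and -2.37 (SE 0.62 each, adjusted p = 0.0059 and 0.015) in the siKctd10 and siControl arms. Gins3 and Gins4 changed least of this group. Gins4 had 25.5, 27.3 and 17.6 TPM at D2 against 50.8, 41.1 and 35.7 TPM at D0 in siKctd10 cells, and 36.1, 32.0 and 21.7 TPM against 44.2, 39.5 and 44.2 TPM in siControl cells. It was called in siKctd10 cells (-0.84, SE 0.22, adjusted p = 0.013) and not in siControl cells (-0.52, SE 0.22, adjusted p = 0.092), and the interaction was -0.32 (SE 0.31). The kinase Cdc7 kept 37.7% of its level in siKctd10 cells and 35.6% in siControl cells. Dbf4, its regulatory subunit, kept 25.7% and 32.4% in the siKctd10 and siControl arms, with 1 D2 siKctd10 library, #3, at 4.60 TPM beside 25.9 and 29.8 TPM.

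The polymerase and primase genes were lower for 7 of 8 in siKctd10 cells and 8 of 8 in siControl cells, with no overlap between the days for any of them. Pole, the catalytic subunit of the leading strand polymerase, had 7.71, 6.19 and 5.77 TPM at D2 against 16.4, 20.4 and 18.7 TPM at D0 in siKctd10 cells, and 4.58, 4.97 and 5.63 TPM against 20, 21.8 and 20.2 TPM in siControl cells. It fell by 1.37 (SE 0.14, adjusted p = 3.6e-05) and by 1.84 (SE 0.14, adjusted p = 4.3e-06) on the log2 scale in the siKctd10 and siControl arms. Pole2, its accessory subunit, had 5.49, 8.08 and 9.01 TPM at D2 against 18.1, 10.9 and 15.6 TPM at D0 in siKctd10 cells, and 4.32, 4.75 and 11.2 TPM against 22.1, 20.1 and 19.6 TPM in siControl cells. Its change was -0.89 (SE 0.32, adjusted p = 0.052) in siKctd10 cells, just outside the threshold, and -1.58 (SE 0.32, adjusted p = 0.0032) in siControl cells. Polymerase alpha and primase, which lay the primers, fell by 0.99 to 1.63 in siKctd10 cells and by 0.90 to 1.28 in siControl cells over Pola1, Pola2, Prim1 and Prim2. The lagging strand polymerase genes Pold1 and Pold2 kept 48.0% and 68.4% of their levels in siKctd10 cells and 35.6% and 49.0% in siControl cells.

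Of the clamp, loader and Okazaki genes, 5 of 9 were lower in siKctd10 cells and 6 of 9 in siControl cells. Pcna, the sliding clamp, kept 46.1% of its level in siKctd10 cells and 43.6% in siControl cells. Rfc5, a loader subunit, had 10.7, 21.8 and 23.6 TPM at D2 against 54.4, 41.8 and 35.9 TPM at D0 in siKctd10 cells, and 13.7, 15.4 and 20.5 TPM against 51.0, 59.4 and 38.4 TPM in siControl cells. It fell by 1.25 (SE 0.30, adjusted p = 0.0089) and by 1.52 (SE 0.30, adjusted p = 0.0029) in the siKctd10 and siControl arms. Fen1, the nuclease that trims Okazaki flaps, had 41.8, 43.0 and 143 TPM at D2 against 134, 137 and 465 TPM at D0 in siKctd10 cells, and 30.7, 37.9 and 39.5 TPM against 118, 123 and 132 TPM in siControl cells. It fell by 1.67 (SE 0.54, adjusted p = 0.036) and by 1.77 (SE 0.54, adjusted p = 0.029) in the siKctd10 and siControl arms. The high values of both siKctd10 #3 libraries came from 1 nested single-exon transcript of 1143 bases, listed at 94.2 TPM at D2 and 317 TPM at D0 there and at 0.645 TPM or less in the other 10 libraries. With transcripts of identical introns alone, which leaves that one out, the changes were -1.64 (adjusted p = 3.1e-06) in siKctd10 cells and -1.78 (adjusted p = 1.6e-06) in siControl cells.

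Rfc1, the large subunit of the loader, had 38.6, 40.8 and 30.3 TPM at D2 against 33.9, 36.2 and 53.6 TPM at D0 in siKctd10 cells, and 25.5, 18.5 and 28.2 TPM against 33.4, 57.4 and 59.0 TPM in siControl cells. The days overlapped in siKctd10 cells (-0.15, SE 0.26, adjusted p = 0.7) and not in siControl cells, where it was called (-1.0, SE 0.26, adjusted p = 0.014). The interaction was 0.85 (SE 0.37, adjusted p = 0.49). With exons of at least 300 bases alone, Rfc1 was called in neither arm, with changes of 0.84 in siKctd10 and -0.83 in siControl cells (SE 0.87 each, adjusted p = 0.51 and 0.52). Its D0 libraries then disagreed, at 17.3, 17.4 and 77.9 TPM in siKctd10 and 17.1, 84.7 and 85.6 TPM in siControl cells. Rfc3 had 9.78, 6.52 and 4.41 TPM at D2 against 7.68, 20.4 and 18 TPM at D0 in siKctd10 cells, and 9.31, 4.09 and 8.93 TPM against 8.56, 16.8 and 15.2 TPM in siControl cells. It overlapped between days in both arms (adjusted p = 0.1 and 0.19 in siKctd10 and siControl cells). Rfc4 was low throughout, with 2.88, 1.15 and 4.79 TPM at D2 against 2.15, 1.11 and 7.62 TPM at D0 in siKctd10 cells, and 1.69, 4.28 and 2.30 TPM against 0.509, 0.895 and 0.813 TPM in siControl cells. Its exons overlap those of Eif4a2, so that reads of these genes may not be told apart. Its log2 changes, -0.08 and 1.06 (SE 0.52 each, adjusted p = 0.92 and 0.15) in the siKctd10 and siControl arms, did not pass the test. The siControl change was called without both siKctd10 #3 libraries (1.06, adjusted p = 0.033) and was -0.48 (adjusted p = 0.73) from exons of at least 300 bases. Lig1, the ligase that seals Okazaki fragments, had 3.38, 2.44 and 4.41 TPM at D2 against 3.52, 14.8 and 21.3 TPM at D0 in siKctd10 cells, and 6.63, 4.72 and 6.99 TPM against 5.29, 20.3 and 13.6 TPM in siControl cells. One low library at D0 in each arm kept its groups overlapping, and it was not called (adjusted p = 0.089 in siKctd10 and 0.32 in siControl cells).

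Of the 4 nucleotide supply genes, 3 were lower in both arms. Tk1, the thymidine kinase of the salvage route, had 44.0, 37.3 and 32.9 TPM at D2 against 172, 172 and 106 TPM at D0 in siKctd10 cells, and 55.6, 44.0 and 56.9 TPM against 211, 209 and 175 TPM in siControl cells. It fell by 1.93 and 1.91 (SE 0.20 each, adjusted p = 4.7e-05 each) in the siKctd10 and siControl arms. Ribonucleotide reductase makes all deoxynucleotides from ribonucleotides, with Rrm1 as its large and Rrm2 as its small subunit. Rrm1 had 128, 112 and 105 TPM at D2 against 247, 218 and 257 TPM at D0 in siKctd10 cells, and 63.3, 70.6 and 68.7 TPM against 196, 199 and 227 TPM in siControl cells. It fell by 1.06 (SE 0.10, adjusted p = 2.7e-05) and by 1.60 (SE 0.10, adjusted p = 1.5e-06) in the siKctd10 and siControl arms. Rrm2 was the most abundant of the 48 genes in every library, with 483, 410 and 408 TPM at D2 against 1209, 1294 and 1013 TPM at D0 in siKctd10 cells, and 455, 486 and 475 TPM against 1132, 1078 and 1141 TPM in siControl cells. It kept 37.0% of its level in siKctd10 cells and 42.3% in siControl cells. Tyms, the thymidylate synthase, had 9.44, 8.34 and 1.84 TPM at D2 against 6.51, 15.1 and 17.5 TPM at D0 in siKctd10 cells, and 8.05, 8.88 and 5.56 TPM against 8.92, 7.95 and 16.3 TPM in siControl cells. Its groups overlapped and it was not called (adjusted p = 0.17 in siKctd10 and 0.55 in siControl cells).

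Chromatin copying, which restores nucleosomes and DNA methylation behind the fork, was lower for 3 of 4 genes in siKctd10 cells and 2 of 4 in siControl cells. Chaf1b, a subunit of the histone chaperone CAF-1, had 28.9, 29.7 and 30.9 TPM at D2 against 91.8, 69.0 and 82.0 TPM at D0 in siKctd10 cells, and 34.6, 27.7 and 31.8 TPM against 86.7, 113 and 117 TPM in siControl cells. It fell by 1.40 (SE 0.14, adjusted p = 4.8e-05) and by 1.72 (SE 0.14, adjusted p = 1.1e-05) in the siKctd10 and siControl arms. Its partner Chaf1a had 55.9, 61.3 and 47.5 TPM at D2 against 80.9, 53.1 and 91.5 TPM at D0 in siKctd10 cells, and 68.9, 59.5 and 66.2 TPM against 89.6, 96.0 and 91.9 TPM in siControl cells. Chaf1a did not pass the test in either arm (-0.42, adjusted p = 0.1 in siKctd10 and -0.51, adjusted p = 0.051 in siControl cells, SE 0.18 each), though its siControl libraries did not overlap between days. The ratio of summed Chaf1a to summed Chaf1b within a library was 1.85 ± 0.27 at D2 against 0.922 ± 0.18 at D0 in siKctd10 cells, and 2.07 ± 0.078 against 0.888 ± 0.13 in siControl cells (SD, n = 3 each). The Chaf1a total sums a transcript matched by introns and one matched by exon overlap. In siControl cells the first had 34.2, 27.8 and 32.8 TPM at D2 against 62.5, 70.3 and 67.2 TPM at D0. The second had 34.7, 31.6 and 33.4 TPM against 27.2, 25.7 and 24.7 TPM. In siKctd10 cells each of them overlapped between days. The Chaf1b total also holds transcripts matched by overlap. One of them, a single exon of 151 bases, had 13.0, 12.9 and 14.5 TPM at D2 against 43.1, 27.6 and 37.8 TPM at D0 in siKctd10 cells. In siControl cells it had 15.9, 10.2 and 11.0 TPM against 27.6, 63.0 and 56.7 TPM. From exons of at least 300 bases the Chaf1b changes were -1.28 and -1.51 (SE 0.10 each) in the siKctd10 and siControl arms. The part of these sums in the ratio was not tested. Uhrf1, which guides the maintenance methylase to new DNA, had 30.2, 28.3 and 23.0 TPM at D2 against 73.9, 102 and 46.8 TPM at D0 in siKctd10 cells, and 34.5, 39.5 and 33.7 TPM against 111, 108 and 103 TPM in siControl cells. It fell by 1.36 and 1.55 (SE 0.23 each, adjusted p = 0.0012 and 0.00053) in the siKctd10 and siControl arms. Dnmt1, that methylase, had 36.6, 34.4 and 77.6 TPM at D2 against 105, 79.9 and 140 TPM at D0 in siKctd10 cells, and 33.0, 41.3 and 44.6 TPM against 60.4, 70.5 and 82.3 TPM in siControl cells. No D2 library of either arm reached a D0 library of that arm, and it was called in siKctd10 cells alone (-1.18, adjusted p = 0.014 against -0.83, adjusted p = 0.065 in siControl cells, SE 0.31 each). From exons of at least 300 bases its change in siKctd10 cells was 2.61 (SE 1.69, adjusted p = 0.28). Those exons disagreed between libraries, with 25.8, 22.9 and 32.5 TPM at D2 against 50.2, 0.199 and 0.53 TPM at D0. That value therefore settles no direction.

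Cyclin E and the E2F factors set the entry into S phase. Ccne1, a cyclin E gene, had 26.2, 27.2 and 24.0 TPM at D2 against 90.5, 98.6 and 78.2 TPM at D0 in siKctd10 cells, and 21.4, 25.6 and 21.3 TPM against 88.8, 92.6 and 91.0 TPM in siControl cells. It fell by 1.75 (SE 0.11, adjusted p = 1.9e-06) and by 1.95 (SE 0.11, adjusted p = 7.6e-07) in the siKctd10 and siControl arms, the only one of the 4 G1/S regulators called in both. Ccne2, the other cyclin E gene, had 1.52, 2.68 and 2.62 TPM at D2 against 10.9, 4.45 and 11.1 TPM at D0 in siKctd10 cells, and 2.89, 2.20 and 2.08 TPM against 4.57, 6.25 and 2.92 TPM in siControl cells. It was called in siKctd10 cells (-1.52, SE 0.33, adjusted p = 0.0057) and not in siControl cells (-0.68, SE 0.33, adjusted p = 0.15), and its exons overlap those of Ints8. The siKctd10 call ended with exons of at least 300 bases alone (-0.97, SE 0.46, adjusted p = 0.14). E2f1, an activator of S phase genes, had 27.5, 13.7 and 24.3 TPM at D2 against 32.4, 24.0 and 41.1 TPM at D0 in siKctd10 cells, and 18.7, 39.3 and 16.5 TPM against 27.5, 59.5 and 28.1 TPM in siControl cells. The days overlapped in both arms for E2f1 (adjusted p = 0.32 in siKctd10 and 0.29 in siControl cells). E2f2, a factor of the same class, had 12.7, 2.82 and 38.5 TPM at D2 against 29.4, 32.1 and 25.8 TPM at D0 in siKctd10 cells, and 55.7, 63.0 and 55.0 TPM against 10.7, 33.3 and 32.0 TPM in siControl cells. Its D2 siControl libraries lay above its D0 siControl libraries, the opposite of most of the 48, without passing the test (1.31, SE 0.72, adjusted p = 0.19); in siKctd10 cells the days overlapped (-1.24, SE 0.72, adjusted p = 0.22).

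Genes with related work were read beside the 48, from lists also chosen with earlier results known. Among all genes tested, 13.2% were called lower and 23.0% higher in siKctd10 cells, and 14.0% lower and 21.3% higher in siControl cells. Of 34 other replication and fork genes, 18 were lower in siKctd10 cells and 19 in siControl cells, among them Hells, a chromatin remodeller, at -2.30 and -2.48. Of 32 other nucleotide genes, 14 were lower and 1 higher in siKctd10 cells, and 13 lower and 2 higher in siControl cells. The higher ones included Rrm2b, the reductase subunit known from resting cells and DNA damage, which rose by 0.72 (SE 0.14, adjusted p = 0.003) and 0.42 (SE 0.14, adjusted p = 0.045) in the siKctd10 and siControl arms. Of 25 E2F, retinoblastoma and CDK regulators, 10 were lower and 5 higher in siKctd10 cells, and 9 lower and 4 higher in siControl cells, so that the counts higher were no larger a share than among all genes. Ccnd1, the cyclin that answers growth factors, was lower (-1.82 and -1.87 in siKctd10 and siControl cells), while the CDK inhibitors Cdkn1a (1.25 and 1.42) and Cdkn1c (1.25 and 1.5) were higher. Of 28 mitosis genes, 22 were lower in siKctd10 cells and 19 in siControl cells, with medians of -1.30 and -1.26, close to those of the replication genes.

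The second comparison asked whether the replication genes differed between siKctd10 and siControl cells on the same day. Few did. At D2, 1 of the 48 genes was called, Rrm1, higher in siKctd10 cells, where 4.72% of all genes tested were called, 2.81% higher and 1.90% lower. At D0, 2 of 48 were called, Mcm5 and Rpa2, both lower in siKctd10 cells, where 2.44% of all genes were called, 1.47% higher and 0.974% lower. At D2 the siKctd10 libraries lay wholly below the siControl libraries for 10 of the 48 genes and wholly above for 4, against 9.86% and 18.4% of all genes. At D0 they lay wholly below for 8 and wholly above for 4, against 8.78% and 14.4%, in sum 23.1% of all genes. At an unadjusted p under 0.05 there were 9 of 48 at D2 and 7 of 48 at D0, against 19.1% and 15.8% of all genes. Without both siKctd10 #3 libraries the counts were 2 of 48 at D2, Rrm1 and E2f2, and 0 at D0, by limma. The shares of all genes called in that fit are not given here, so these counts show only which calls of the 48 were kept, gained or lost. Median log2 changes of the 48 were -0.08 at D2 and -0.16 at D0, beside 0.08 and 0.05 for all genes. Changes lay below 0 for 32 of the 48 at D2 and 35 at D0, beside 5243 and 5724 of the 13148 genes tested. A p that misses the threshold does not show equal levels, and the SE of these changes was 0.20 at the median gene and 0.09 to 1.33 over the 48. On the same day as the Rrm1 call, 5 of 12 myoblast and myocyte markers were lower in siKctd10 cells (summed TPM above), and 1 of the 2 adipocyte markers tested, Cebpa, was higher (1.03, SE 0.14, adjusted p = 0.0034). The part of these in the replication gene levels was not tested.

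**Figure D3:**
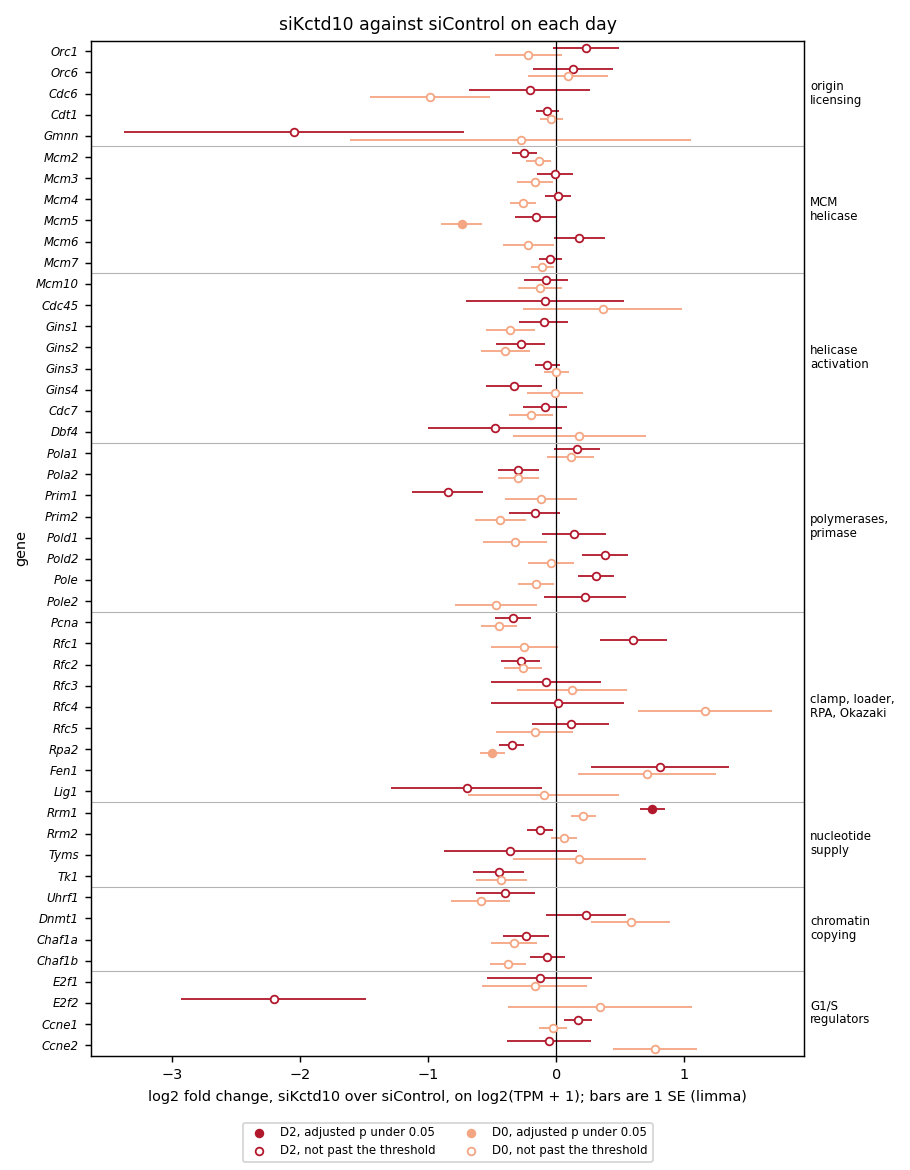
Log2 fold change of each of the 48 genes, siKctd10 over siControl, at D2 (dark red) and D0 (orange), with 1 SE from limma; filled points passed the threshold. At D2 41 of the 48 points, and at D0 40, lie within 0.5 of 0; Rrm1 at D2, and Mcm5 and Rpa2 at D0, are filled.

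Rrm1 (chr7:102441695-102469771 of mm10, 1 transcript of 19 exons) at D2 had 128, 112 and 105 TPM in siKctd10 cells, against 63.3, 70.6 and 68.7 TPM in siControl cells. All 3 siKctd10 libraries lay above all siControl libraries, and the change was 0.75 (SE 0.10, adjusted p = 0.0037). At D0 it was 0.21 (SE 0.10, adjusted p = 0.35), and the interaction was 0.54 (SE 0.14, adjusted p = 0.16), so that a difference between the days was not called. The call did not rest on all exons alike. At D2, 9 of the 19 exons were at 0 in all 6 libraries, 4 were covered in all 6, and 5 were covered in 1 or 2 siKctd10 libraries and in no siControl library. Exon 13, of 150 bases, was listed at 719, 442 and 0 on the TPM scale in siKctd10 cells, against 0 in the 3 siControl libraries. Exon 8, of 142 bases, was listed at 596 in siKctd10 #1 and at 0 in the other 5 D2 libraries. The last exon, of 1477 bases, had 104, 108 and 156 in siKctd10 cells, against 88.3, 84.4 and 88.3 in siControl cells. Over the 4 exons covered in all 6 libraries the ratio of siKctd10 to siControl means was 1.09 to 1.41, and 3 of the 4 did not overlap. From exons of at least 300 bases, the Rrm1 change was 0.44 (SE 0.19, adjusted p = 0.24) and no gene of the 48 was called at D2, where 4.79% of all genes were. For the whole gene the ratio of mean TPM was 1.7.

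**Figure D4:**
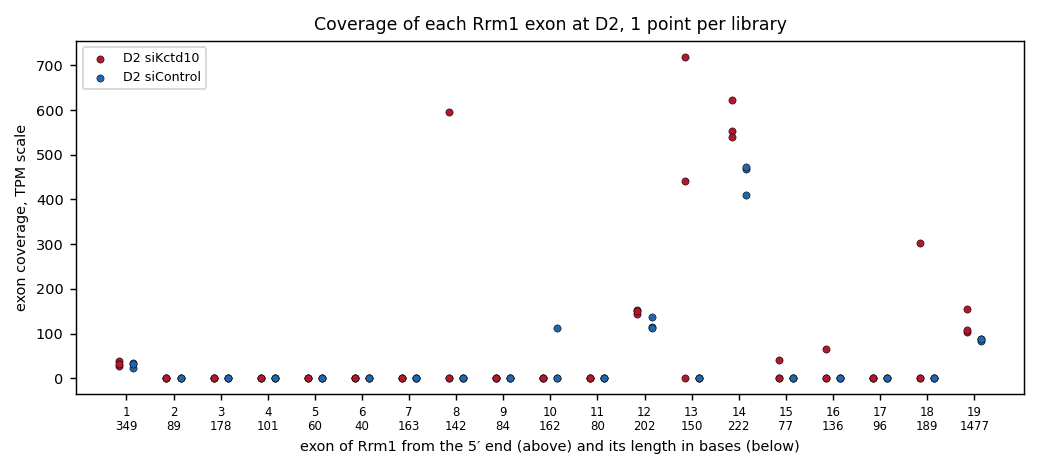
Coverage of the 19 exons of Rrm1 at D2 on the TPM scale, with each exon's length in bases below its number and 1 point per library, siKctd10 in red and siControl in blue. Exons 8, 13 and 18 carry red points above 300 in 1 or 2 libraries and blue points at 0, while exons 1, 12, 14 and 19 are covered in all 6 libraries.

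Mcm5 (chr8:75109509-75128439) at D0 had 38.9, 52.6 and 51.4 TPM in siKctd10 cells, against 83.5, 68.6 and 87.6 TPM in siControl cells. The groups did not overlap, and the change was -0.74 (SE 0.16, adjusted p = 0.047). At D2 the groups overlapped (-0.16, SE 0.16, adjusted p = 0.64). All of its TPM came from 1 of 2 transcripts in each library, and which one differed between libraries of the same group. Its last exon, of 1217 bases, had 70.4, 76.3 and 70.3 on the TPM scale in D0 siKctd10 cells, against 91.0, 105 and 94.8 in D0 siControl cells, a ratio of 0.75. From exons of at least 300 bases the change was -0.42 (SE 0.13, adjusted p = 0.15), and the call was lost without any 1 of the 6 D0 libraries (adjusted p = 0.071 to 0.15) or any 1 of the D2 libraries but siControl #1 (0.054 to 0.075). The adjusted p ranged from 0.014 to 0.16 over all settings tried.

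Rpa2 (chr4:132768360-132778746), a subunit of the single-strand binding protein RPA, at D0 had 69.6, 72.7 and 62.3 TPM in siKctd10 cells, against 98.6, 96.9 and 95.4 TPM in siControl cells. The change was -0.50 (SE 0.10, adjusted p = 0.028). At D2 it had 28.1, 33.6 and 26.6 TPM in siKctd10 cells, against 37.3, 38.1 and 37.7 TPM in siControl cells, again with no overlap, and missed the threshold (-0.35, SE 0.10, adjusted p = 0.079). It was called at D2 without D2 siKctd10 #2 (-0.45, adjusted p = 0.035), with median-ratio scaling (-0.44, adjusted p = 0.02) and with quantile normalization (-0.45, adjusted p = 0.028). Its level rested on the last exon, of 957 bases, the 1 exon covered in all 12 libraries. That exon had 125, 130 and 112 on the TPM scale in D0 siKctd10 cells, against 181, 177 and 174 in D0 siControl cells. From exons of at least 300 bases the change was -0.50 (SE 0.09, adjusted p = 0.02) at D0 and -0.36 (SE 0.09, adjusted p = 0.055) at D2. The D0 call was lost without any 1 of the 6 D0 libraries (adjusted p = 0.057 to 0.1), where the change stayed between -0.55 and -0.44. Exons of at least 300 bases also called Pola2 and Chaf1b lower at D0, which makes 3 of 42 genes, where 2.99% of all genes were called.

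**Figure D5:**
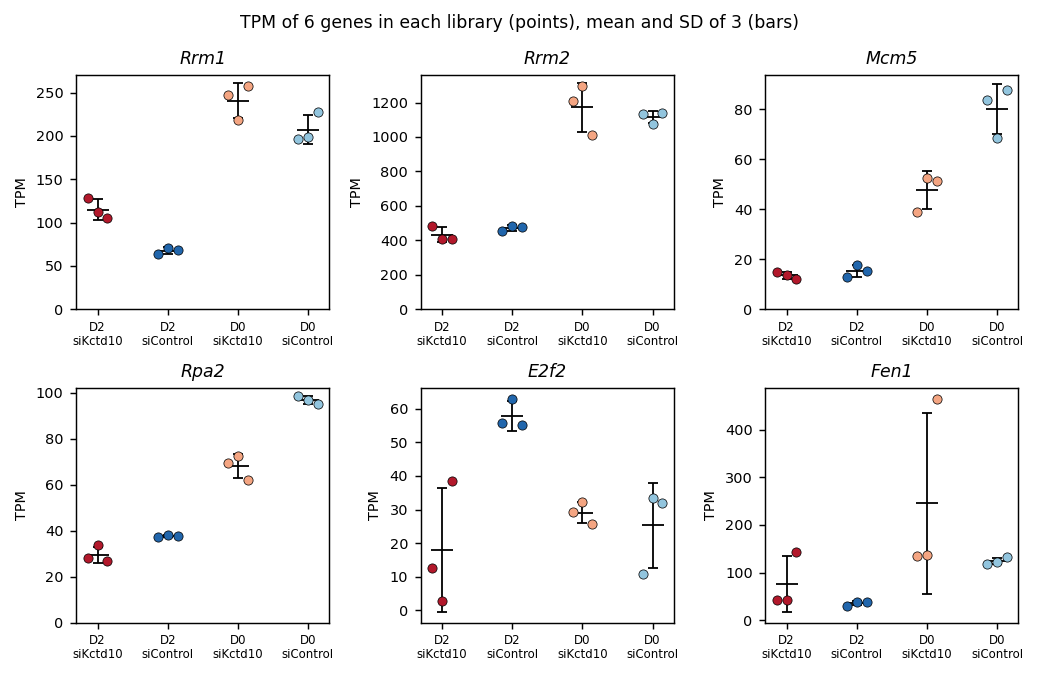
TPM of Rrm1, Rrm2, Mcm5, Rpa2, E2f2 and Fen1 in each library (points) with the mean and SD of 3 libraries (bars), in the order D2 siKctd10, D2 siControl, D0 siKctd10 and D0 siControl. The points of Rrm1 at D2, and of Mcm5 and Rpa2 at D0, do not overlap between siRNAs, and single points of E2f2 and Fen1 stand far from their group.

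The largest changes that did not pass the test belonged to genes whose libraries disagreed. At D2, E2f2 had 12.7, 2.82 and 38.5 TPM in siKctd10 cells, against 55.7, 63.0 and 55.0 TPM in siControl cells (-2.21, SE 0.72, adjusted p = 0.12). All 3 siKctd10 libraries lay below siControl, spread 13.7-fold among themselves, and E2f2 was called without D2 siKctd10 #3 (-3.02, adjusted p = 0.032), while without D2 siKctd10 #2 its change was -1.34 (adjusted p = 0.25). Gmnn had 80.4, 0.0261 and 59.9 TPM in D2 siKctd10 cells, against 70.0, 70.8 and 69.8 TPM in D2 siControl cells (-2.05, SE 1.33, adjusted p = 0.44), a difference of 1 library. Prim1, the catalytic primase subunit, had 15.8, 11.6 and 5.78 TPM in D2 siKctd10 cells, against 20.5, 18.6 and 19.0 TPM in D2 siControl cells (-0.85, SE 0.28, adjusted p = 0.13). At D0, Rfc4 had 2.15, 1.11 and 7.62 TPM in siKctd10 cells, against 0.509, 0.895 and 0.813 TPM in siControl cells (1.16, SE 0.52, adjusted p = 0.32). Cdc6 at D0 had 51.9, 51.1 and 10.9 TPM in siKctd10 cells, against 61.3, 61.0 and 66.0 TPM in siControl cells (-0.99, SE 0.47, adjusted p = 0.35). Ccne2 at D0 had 10.9, 4.45 and 11.1 TPM in siKctd10 cells, against 4.57, 6.25 and 2.92 TPM in siControl cells (0.77, SE 0.33, adjusted p = 0.3). In all, 9 of the 48 genes spread more than 3-fold inside a group or had a library at 0.

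Of the related lists, 3 of 32 other nucleotide genes and 2 of 25 regulators were called with the siRNA at D2, 9.38% and 8% beside 4.72% of all genes. At D0 it was 1 of 32 and 1 of 25, 3.12% and 4% beside 2.44%. The other replication and mitosis lists had 0 called by limma on either day, and 0 by limma-voom; at an unadjusted p under 0.05 there were 0 of 34 and 3 of 28 at D2, and 4 of 34 and 1 of 28 at D0. Dck, the deoxycytidine kinase of salvage, was lower in siKctd10 cells on both days: 39.9, 38.9 and 38.9 TPM against 50.4, 52.8 and 52.3 TPM in siControl cells at D2 (-0.39, SE 0.09, adjusted p = 0.039), and 75.7, 81.4 and 67.4 TPM against 100, 118 and 104 TPM at D0 (-0.51, SE 0.09, adjusted p = 0.021). At D2, Cad, which starts pyrimidine synthesis, and Mthfd2, a mitochondrial folate enzyme, were higher in siKctd10 cells (0.70 and 0.68, adjusted p = 0.021 and 0.02). Cdc25a, the phosphatase that activates CDK2, had 13.4, 15 and 15.2 TPM in D2 siKctd10 cells, against 7.85, 9.98 and 9.28 TPM in D2 siControl cells (0.63, SE 0.11, adjusted p = 0.012). Ccnd3, a D-type cyclin known in muscle differentiation, was lower at D2 (-0.37, SE 0.09, adjusted p = 0.047) and, alone among the 25 regulators, called in the interaction (-0.72, SE 0.13, adjusted p = 0.034). Ccnd2 was higher at D0 (0.39, SE 0.08, adjusted p = 0.036).

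The interaction asked whether the siRNA effect on a gene differed between D2 and D0, days that also differ in time since the siRNA. By limma 0 of the 48 genes were called, where 0.738% of all genes were, and limma-voom also called 0. At an unadjusted p under 0.05 there were 5, Mcm5, Pole, Rfc1, Rrm1 and E2f2, against 9.97% of all genes. For 35 of the 48, the day changes of the siKctd10 and siControl arms differed by less than 0.5 on the log2 scale. The largest interactions were those of E2f2 (-2.55, SE 1.01, adjusted p = 0.42), Gmnn (-1.77, SE 1.87, adjusted p = 0.82) and Rfc4 (-1.14, SE 0.73, adjusted p = 0.68), which are among the genes with a library far from its group. The wide errors of such genes mean that differences of this size were not detectable for them with 3 libraries a group.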

How the data were processed

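The authors deposited 1 StringTie table per library, made with StringTie 1.3.3b per the file headers (1.1.3 per the submitters' processing notes, which also name HISAT, SAMtools, DESeq2 and mm10). Each lists 63759 transcripts with coverage, FPKM and TPM, other per-transcript values than counts. TPM is normalized to 1000000 per library by the authors, so levels are relative. Transcripts were matched to GENCODE M21 genes of the same build by identical introns (42608) or at least 50% exon overlap (13488), 88.0% in all, and their TPM summed per gene. Unmatched transcripts held 3.82 to 4.63% of TPM. A gene was tested if 3 libraries or more reached a TPM of 1. The test was limma 3.58.1 (R 4.3.3, trend, robust, 4 group means) on log2(TPM + 1), a pseudocount of 1 that understates changes of low genes. P-values were adjusted by Benjamini-Hochberg over 13148 genes, two-sided, threshold 0.05. Other steps used Python 3.11.15, and the fit was tested on simulated data. Depth was taken as coverage times length over 202 bases per read pair. Strand was not stated, so overlapping genes cannot be told apart.

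The members and lists were chosen with earlier results of these data known. Genes were named by rule: per role the 2 called with the largest change between days in siControl cells and those not called, and per siRNA comparison or interaction those called and the next 3. Genes from the related lists were the 3 largest called per direction; Hells, Rrm2b, Ccnd1, Cdkn1a and Cdkn1c are given as examples of these. Other names in the text, Cdt1, Mcm2, Gins3, Cdc7, Dbf4, Pcna, Rfc1, Rrm2, Pold1, Pold2 and the primase genes, were added after their values were seen. Replicate numbers were checked for pairing by correlating deviations from group means. Alternatives covered pseudocount, filters, scaling, voom, trend, groups in the fit, replicate block, transcripts summed, long exons and each library left out.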

Additional observations from a re-analysis of the deposited data

How the results depend on the processing

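The counts of genes called between days kept within 1.5 times under every setting tried: 29 to 40 in siKctd10 cells and 28 to 40 in siControl cells. All were lower, except Rfc4, higher in siControl cells with the 2 groups alone or without both siKctd10 #3 libraries (1.06, adjusted p = 0.031 and 0.033). Leaving out 1 library gave 35 to 38 and 33 to 38. Quantile normalization moved the median of all genes between days to -0.02 in siKctd10 and -0.03 in siControl cells, from 0.12 and 0.09. At D2, the siRNA count of 1 was 2 with median-ratio scaling, quantile normalization or without both siKctd10 #3 libraries, 0 with exons of at least 300 bases, and 1 to 2 when 1 library was left out. At D0, the count of 2 was 1 with pseudocount 0.1, without the filter, or with the replicate block, 0 with the 2 groups alone or without both siKctd10 #3 libraries, and 0 to 2 when 1 library was left out. The interaction count was 0 throughout. Values of single genes kept direction and side of the threshold in 1412 cases, were gained in 46, lost in 49 and reversed in 10; the cause was not tested. With long exons alone, reversals gave Rfc4 -0.48 and Tyms 0.52 between days in siControl cells, Cdc6 0.26, Dnmt1 2.61 and Rfc1 0.84 in siKctd10 cells (Rfc1 outside the cases counted), Ccne2 -0.19 at D0, and an Rfc4 interaction of 0.24. Leaving out 1 library, the Rfc4 change in siKctd10 cells ran from -0.52 to 0.50: it was 0.50 without D0 siKctd10 #3, 0.30 without D2 siKctd10 #2 and 0.16 without both #3 libraries, and the Gmnn interaction was 0.26 without D2 siKctd10 #2 and -2.93 without both #3 libraries. Replicate numbers did not pair the libraries throughout. Same-numbered libraries correlated at -0.02 to 0.09, except both siKctd10 #3 libraries at 0.2, which also stand apart together. On the second principal component, siKctd10 #1, #2 and #3 kept the same order on both days. They stood at -6.3, -20.1 and -42.6 at D2 and at -1.6, -11.1 and -42.7 at D0. A pairing within that arm alone was not tested. The block gave counts of 36 and 39 between days in the siKctd10 and siControl arms, 1 at D2, 1 at D0 and 0 for the interaction.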
